A study of Mus musculus with 7 samples.

Results

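The regions described here were E1 in GSK-LSD1 and E2 in DMSO over at least 2 kb without a break, and they were selected on the state labels of both segmentations. Each segmentation was cut into bins of 200 bp on chromosomes 1 to 19 and X, bins with this pair of labels were joined where they touched, and runs of at least 2 kb were kept. There were 16510 such regions, of 29681 runs of any length, and they covered 82.9 Mb, which was 14.8% of the 560.0 Mb that was E2 in DMSO. They are called converted regions below. E2 that stayed E2 in GSK-LSD1, joined and filtered in the same way (30039 regions), is called kept E2. Where kept E2 is counted in bins or kb, runs of any length are included.

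The cells were mouse bone marrow cells of BALB/c background that carried mutant CSF3R and mutant CEBPA by retroviral expression, in both groups alike. CSF3R receives the signal of granulocyte colony-stimulating factor, and CEBPA drives granulocyte precursors towards maturation. The cells were exposed for 48 h to the LSD1 inhibitor GSK-LSD1 at 4 nM or to the solvent DMSO. H3K4me1, H3K4me3 and H3K27Ac were precipitated once per treatment, giving 6 libraries beside 1 input library, and the authors deposited 1 segmentation with 6 states, E1 to E6, per treatment. There are no replicates, so no test was possible and every value sets 1 segmentation beside the other. The start of Prtn3, a granule protease, was E6 in GSK-LSD1 and E5 in DMSO, that of Mpo was E6 in GSK-LSD1 and E4 in DMSO, and that of Myb was E6 in both. Genes of mature granulocytes varied. The start of Mmp8, a collagenase, was E6 in GSK-LSD1 and E4 in DMSO. That of Itgam, an integrin subunit, was E6 in GSK-LSD1 and E2 in DMSO. The starts of Ly6g, Cd177 and Ngp were E2 in both, and those of Camp and Ltf were E3 in GSK-LSD1 and E2 in DMSO. Wilson intervals (95%) cover counting error only, and sequencing depth is unknown because state labels hold no counts. Retroviral expression puts the mutant genes under viral control in cells that can keep their own copies, which limits the model.

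LSD1, encoded by Kdm1a, removes methyl groups from lysine 4 of histone H3 and works in the CoREST complex, to which the repressors GFI1 and GFI1B bring it in blood cells. H3K4me1 is typical of enhancers and of the flanks of active genes, H3K4me3 of promoters, and H3K27Ac of active regulatory elements. A segmentation groups combinations of such marks into numbered states. The sources used here do not give the marks that make up E1, E2 or any other state, so E1 of GSK-LSD1 may differ in its marks from E1 of DMSO. The order of states along the chromosome was of the same form in both: E1 never bordered E3, E2 never bordered E5 or E6, and E3 never bordered E6, with 0 boundaries of each kind in GSK-LSD1 and in DMSO.

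Where E1 and E2 lay relative to gene starts was measured to place these states. E5 and E6 were the states of gene starts: their share at annotated protein-coding starts was 16.6 and 14.9 times their share of the genome in GSK-LSD1, and 25.1 and 21.2 times in DMSO. E1 was depleted at starts in both, at 0.455 times its genome share in GSK-LSD1 and 0.581 times in DMSO. E2 was at 0.465 times in GSK-LSD1 and 0.528 times in DMSO.

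Some converted regions hold microRNA genes, and the mature sequences are shown because those are the products encoded inside the chromatin described. Of 1005 annotated mouse hairpins, 44 lay wholly inside a converted region (4.38%), while the regions made up 3.15% of the chromosomes analysed. Of the 350 hairpins that were E2 throughout in DMSO, the 44 make 12.6%, against 14.8% of all E2 bins that were converted; a hairpin had to lie in a region over its whole length, which a bin does by definition. The microRNAs printed were chosen after their states had been seen, as those with well-known roles or shared seeds. Sequences are from RefSeq on build GRCm38.p6, written 5′ to 3′, with the seed (bases 2 to 8) in capitals.
mmu-miR-181a-5p: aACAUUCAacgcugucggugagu
mmu-miR-181b-5p: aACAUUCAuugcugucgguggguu
mmu-miR-29a-3p: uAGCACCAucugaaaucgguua
mmu-miR-29b-3p: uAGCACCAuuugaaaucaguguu
mmu-miR-130c: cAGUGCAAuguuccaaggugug
mmu-miR-721: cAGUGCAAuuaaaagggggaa
mmu-miR-16-5p: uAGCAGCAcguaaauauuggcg
mmu-miR-107-3p: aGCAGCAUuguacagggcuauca
mmu-miR-221-3p: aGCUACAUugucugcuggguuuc

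The first 3 pairs share a seed, AGCACCA in the miR-29 pair and ACAUUCA in the miR-181 pair, which are also neighbours on the chromosome, and AGUGCAA in miR-130c and miR-721, which are not. Mir181a-1 and Mir181b-1 lay on the plus strand inside 1 region, chr1:137963601-137969000. The miR-181 family is best known for its part in lymphocyte development. Mir29a and Mir29b-1, on the minus strand, lay inside chr6:31061801-31064000. The miR-29 family is known to target transcripts of collagens and of DNA methyltransferases. Mir16-1 lay inside chr14:61630201-61632600 on the minus strand. It belongs to the cluster whose human counterpart is lost in chronic lymphocytic leukaemia.

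Mir221 lay inside chrX:19141601-19146800, on the minus strand. Its partner Mir222, in the same cluster, was E1 in GSK-LSD1 too but E4 in DMSO, so it was not in the region. Other microRNAs of blood cells had other histories. Mir142 was E6 in both segmentations, Mir155 was E6 in GSK-LSD1 and E4 in DMSO, and Mir223, typical of granulocytes, was E5 in GSK-LSD1 and E3 in DMSO. Mir146 was E3 in GSK-LSD1 and E2 in DMSO. A mature sequence such as miR-16-5p, miR-29b-3p or miR-181a-5p is also made from another hairpin elsewhere, so the state of 1 hairpin is not the state of the whole microRNA.

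Converted regions seldom covered gene starts, and where they did the sequence there was poor in CpG. Of 21045 protein-coding promoter windows of 300 bases (250 before the start and 50 after), 215 windows of 201 genes lay wholly inside a converted region. They held a median of 4 CpG and 49.7% G or C. The 1264 windows inside kept E2 regions held a median of 4 CpG and 52.0% G or C, and the 11426 windows with E5 or E6 at the start in DMSO held 22 CpG and 62.3%. Of the 201 genes, 66 had E5 or E6 at another of their starts in DMSO. Of the 2299 windows that were E2 throughout in DMSO, 9.35% lay inside a converted region, against 14.8% of all E2 bins that were converted. A window had to lie in a region over its whole length, which a bin does by definition, so these shares are not like measures.

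The windows of Elane, Mpeg1 and C3ar1 are shown as examples of starts inside converted regions, and that of Kdm1a as a start of the E5 and E6 kind. They were chosen after their states had been seen. The sequences are RefSeq promoter windows on GRCm38.p6, 5′ to 3′ on the strand of the gene, with each CpG in capitals.
Elane, chr10:79886062-79886361, plus strand: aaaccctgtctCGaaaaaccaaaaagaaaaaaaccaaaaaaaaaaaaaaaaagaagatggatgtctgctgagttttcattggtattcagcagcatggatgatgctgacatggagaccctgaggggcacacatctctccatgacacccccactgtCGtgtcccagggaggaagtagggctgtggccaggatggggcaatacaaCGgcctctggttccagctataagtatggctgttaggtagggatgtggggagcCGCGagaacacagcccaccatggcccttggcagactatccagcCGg
Mpeg1, chr19:12460520-12460819, plus strand: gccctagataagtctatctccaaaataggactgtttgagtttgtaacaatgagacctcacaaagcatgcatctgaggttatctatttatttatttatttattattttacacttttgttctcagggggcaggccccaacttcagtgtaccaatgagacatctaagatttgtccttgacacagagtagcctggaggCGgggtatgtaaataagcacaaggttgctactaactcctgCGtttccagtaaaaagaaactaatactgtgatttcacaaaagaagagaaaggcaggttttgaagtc
C3ar1, chr6:122856108-122856407, minus strand: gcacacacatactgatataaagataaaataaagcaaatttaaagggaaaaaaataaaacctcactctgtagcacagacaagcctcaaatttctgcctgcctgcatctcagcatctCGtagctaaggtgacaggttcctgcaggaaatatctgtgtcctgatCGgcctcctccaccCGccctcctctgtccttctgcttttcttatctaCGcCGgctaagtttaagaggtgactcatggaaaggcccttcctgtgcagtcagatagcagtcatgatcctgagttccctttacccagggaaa
Kdm1a, chr4:136602674-136602973, minus strand: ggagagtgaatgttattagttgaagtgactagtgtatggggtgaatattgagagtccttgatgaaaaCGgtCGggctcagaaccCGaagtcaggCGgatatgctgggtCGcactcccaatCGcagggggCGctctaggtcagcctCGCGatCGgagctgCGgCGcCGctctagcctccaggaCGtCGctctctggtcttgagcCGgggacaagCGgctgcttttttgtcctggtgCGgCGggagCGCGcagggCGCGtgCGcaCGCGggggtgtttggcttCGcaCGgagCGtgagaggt

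Elane encodes neutrophil elastase, a protease of azurophil granules. Its window held 6 CpG and lay in a 10.8 kb region, chr10:79886001-79896800, which adjoined E5 or E6 in GSK-LSD1 and lay 1.2 kb from the nearest such bin in DMSO. The whole gene body, 1.8 kb in bins, was inside that region. Mpeg1 encodes perforin-2 of macrophages, and its window held 2 CpG in a region of 2 kb that adjoined E5 or E6 in GSK-LSD1 and lay 2.6 kb away in DMSO. C3ar1 encodes the receptor for complement C3a. Its window held 5 CpG in a 10.6 kb region that was 0.2 kb from E5 or E6 in GSK-LSD1 and 10.6 kb in DMSO. The Kdm1a window held 29 CpG and was E6 in GSK-LSD1 and E5 in DMSO.

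Short motifs were looked for in the same windows on both strands: TTGCNNAA (C/EBP), GAGGAA (PU.1 and other ETS factors), TGTGGT (RUNX), GGGCGG (SP and KLF factors) and TATAAA (the TATA box). GAGGAA was in 34.4% of windows inside converted regions, 30.9% of those inside kept E2, and 27.2% of all 21045 windows. TGTGGT was in 23.3%, 18.1% and 14.7% of the same sets, and TTGCNNAA in 9.77%, 12.1% and 10.3%. GGGCGG was in 16.3%, 19.9% and 46.7%, against 68.5% of windows with E5 or E6 at the start, and TATAAA in 16.7%, 14.6% and 12.7%. Elane's window held 1 GAGGAA match and none of the other motifs, C3ar1's held 1 GGGCGG and 1 TATAAA, and Mpeg1's held none of the 5. A match describes letters and not binding.

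The converted regions were mostly a few kilobases long, with a tail of very long ones. Their median length was 3.8 kb, with quartiles of 2.8 and 6 kb, a 90th percentile of 9.2 kb and a longest region of 65.6 kb; kept E2 regions had a median of 7.2 kb. The 5880 regions of at least 5 kb held 59.98% of the area, and the 1387 regions of at least 10 kb held 23.4%. The 2 kb limit cut a smooth distribution: there were 1077 runs of 2.2 kb and 1129 of 2.0 kb just inside it, and 1171 of 1.8 kb just outside. Of all bins that were E1 in GSK-LSD1 and E2 in DMSO, 87.0% were in the regions kept.

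E1 covered 124.4 Mb in GSK-LSD1 and 12.7 Mb in DMSO, and 66.6% of the E1 area in GSK-LSD1 lay in converted regions. The opposite change was small: 137 regions of at least 2 kb, 0.447 Mb in all, were E2 in GSK-LSD1 and E1 in DMSO. Of the E2 bins of DMSO, 60.9% were still E2 in GSK-LSD1, 15.4% were E3, 5.41% were E4 and 1.28% were E5 or E6. Only 0.253% of E3 bins were E1 in GSK-LSD1. Of the E1 bins of DMSO, 61.2% stayed E1 and 27.01% were E6 in GSK-LSD1.

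The share of E2 that was converted was similar on every autosome, at 14.9% ± 1.56 (SD, n = 19 autosomes), with the lowest value of 12.2% on chromosome 8 and the highest of 17.5% on chromosome 13. Chromosome X was lower, with 34 regions, 0.152 Mb and 6.81% of its E2. Within autosomes the area was uneven. Of 2625 windows of 1 Mb, 1079 held none, the median held 7.8 kb, and 292 held 50% of the area.

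Converted regions lay mainly inside genes, as E2 did in general. Of the converted bins, 63.8% (Wilson interval 63.6 to 63.9%) were inside protein-coding gene bodies. The share was 62.7% of kept E2 bins, 60.2% of all E2 bins of DMSO and 39.1% of the chromosomes analysed. Kept bins were counted in runs of any length, so only the converted side had the 2 kb minimum. E2 that was E3 in GSK-LSD1 had a lower share, 49.2%. The 1.05 percentage points between converted and kept E2 did not recur from chromosome to chromosome: the converted share was the higher one on 10 of 19 autosomes. With genes of any type the shares were 72.1% of converted and 69.8% of kept bins.

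By region, 9907 (60.01%) were wholly inside a protein-coding gene, 5729 (34.7%) were wholly outside, and 874 (5.29%) crossed a gene edge. Of those outside, 1706 touched a gene of another type, and 4023, or 24.4% of all regions, touched no annotated gene.

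By region, the median distance to the nearest E5 or E6 bin was close for converted regions and kept E2 in DMSO, and shorter for converted regions in GSK-LSD1. The distance was taken from the nearest bin of a region, which favours short distances in long regions. Kept regions were longer (median 7.2 kb, against 3.8 kb for converted regions), so the 2 sets are not like measures. Against the E5 and E6 of DMSO, the median was 6.6 kb for converted regions (quartiles 1.6 and 19.8 kb) and 6.2 kb for kept E2 (2.4 and 21.4 kb). In each set 45.3% lay within 5 kb. With a minimum region length of 5 kb the order of the medians turned, 5.2 kb for converted and 6.4 kb for kept regions. Beyond 50 kb lay 8.29% of converted and 10.6% of kept regions. Against the E5 and E6 of GSK-LSD1, the medians were 1.2 kb for converted and 3.6 kb for kept regions. That segmentation also defines conversion, and E2 never bordered E5 or E6 in it, so selection partly fixes these distances.

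In all, 87.1% of converted regions and 78.9% of kept regions were closer to E5 or E6 in GSK-LSD1 than in DMSO. E6 made up 2.08% of all bins in GSK-LSD1 and 0.217% in DMSO, while E5 made up 1.53% in GSK-LSD1 and 1.98% in DMSO. The part of these changes in the distances was not tested. Of converted regions, 4676 (28.3%) adjoined E5 or E6 in GSK-LSD1. No kept region did so, since E2 bordered neither state in either segmentation. At the 5321 edges where a converted region met E6 in GSK-LSD1, the E6 side had been E2 in DMSO at 78.0% and E4 at 17.9%.

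Counted by bin, conversion differed with distance from E5 or E6 in DMSO and was not highest right beside them. At 0 to 1 kb 16.8% of E2 bins were converted, at 1 to 2 kb 21.4%, at 2 to 5 kb 24.1% and at 5 to 10 kb 19.6%. The share was 15.2% at 10 to 20 kb, 11.5% at 20 to 50 kb, 7.49% at 50 to 100 kb and 5.51% at 100 kb or more. The place of the peak depended on the minimum length. For E1 runs of any length, the share was 24.9% at 0 to 1 kb, 29.1% at 1 to 2 kb and 27.5% at 2 to 5 kb. The fate of the remaining E2 changed along the same axis. Nearest to E5 and E6, 36.7% of E2 bins were E4 in GSK-LSD1, and at 100 kb or more 1.85% were. The share that was E3 in GSK-LSD1 was 3.28% in the nearest class and 42.3% in the farthest.

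**Figure D1:**
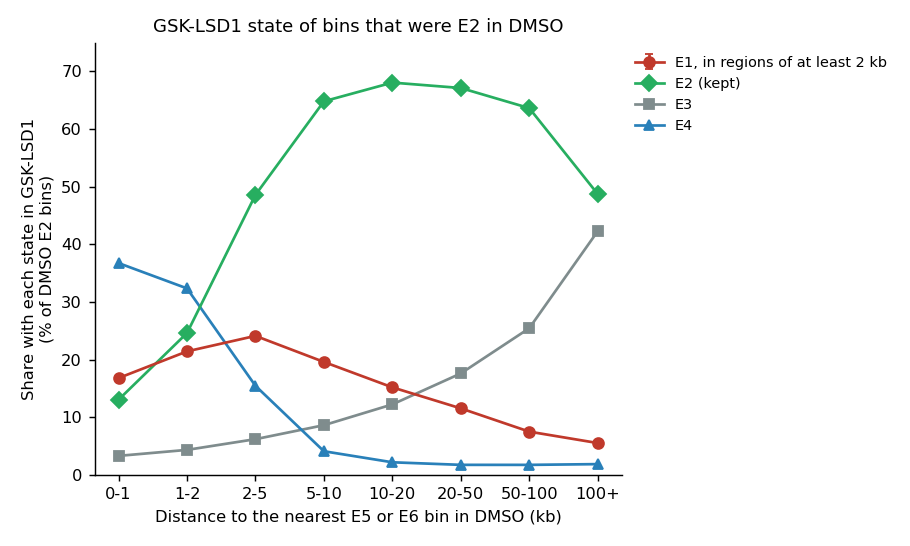
State in GSK-LSD1 of the 200 bp bins that were E2 in DMSO (vertical axis, % of those bins) by distance to the nearest E5 or E6 bin of DMSO (horizontal axis, kb classes); circles are bins in converted regions, with 95% Wilson intervals smaller than the marker, and the other lines are bins that were E2, E3 or E4 in GSK-LSD1. Conversion in regions of at least 2 kb peaks at 24.1% in the class of 2 to 5 kb. E1 runs of any length, not drawn, peak at 29.1% in the class of 1 to 2 kb. The E4 line is highest nearest to E5 and E6, and the E3 line is highest beyond 100 kb.

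In the plot of states by distance, staying E2 was the most common outcome in every class from 2 kb outward. Its share was 48.6% at 2 to 5 kb, 68.1% at 10 to 20 kb and 48.7% at 100 kb or more. The E4 share was highest nearest to E5 and E6 and the E3 share farthest from them. The place of the E1 peak between them depended on the 2 kb minimum. Within each distance class up to 100 kb, E2 inside protein-coding genes was converted more often than E2 outside them. At 2 to 5 kb the shares were 25.4% inside genes and 22.3% outside. At 5 to 10 kb they were 21.2% inside and 17.2% outside. At 100 kb or more the order was the other way, with 5.01% inside and 5.99% outside. Chromatin states of neighbouring bins are not independent, and no test of these differences was possible.

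The states beside a converted region in DMSO differed from those beside kept E2. E4 stood at an edge of 47.2% of converted and 29.1% of kept regions. E1 stood at an edge of 18.4% of converted and 4.72% of kept regions. E3 stood at an edge of 1.28% of converted and 11.9% of kept regions, and E2 at both edges of 38.6% and 57.5%. Longer regions bordered a DMSO E1 bin more often, in 16.5% of regions of 2 to 5 kb, 20.7% of 5 to 10 kb, 24.9% of 10 to 20 kb and 30.2% of 20 kb or more.

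Most converted regions took up only a piece of an E2 block. Of all regions, 2488 (15.1%) filled their whole DMSO block, 7655 (46.4%) reached 1 end of it and 6367 (38.6%) lay inside it with E2 on both sides. Short blocks were converted over a larger share of their area, 28.7% in blocks of 2 to 5 kb and 7.91% in blocks of 100 kb or more. Long blocks held at least 1 converted region more often, 64.9% of blocks of 100 kb or more and 31.0% of blocks of 2 to 5 kb.

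Conversion was more frequent in genes with E5 or E6 at a start. Of 21631 protein-coding genes, 4099 (18.9%) held at least 2 kb of converted area in their body, and 1518 held at least 10 kb. Of 9600 genes with E5 or E6 at an annotated start in DMSO, 2834 (29.5%) held at least 2 kb and 17.2% of their E2 was converted. Of 990 genes with E4 at best, 13.5% did, with 11.7% of their E2. Of 6684 genes with E1, E2 or E3 alone at the start, 4.86% did, with 9.05% of their E2. Among genes of at least 100 kb, the shares of genes were 56.0%, 31.3% and 14.3% in the same order of start states. E2 made up 37.9%, 16.3% and 7.61% of the bodies of these long genes in DMSO. Of that E2, 19.4%, 14.7% and 11.3% was converted, so the classes differed less by share of E2 than by count.

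In long genes with E5 or E6 at the start, conversion was more frequent downstream of the start than upstream beyond the first 5 kb. In 1120 such genes of at least 100 kb, 5.90% of E2 bins were converted in the first 5 kb downstream and 9.20% in the first 5 kb upstream. At 5 to 10 kb the shares were 18.5% downstream and 9.94% upstream. At 20 to 50 kb they were 22.6% downstream and 13.1% upstream. Beyond 100 kb they were 17.6% and 15.2%. Upstream bins inside another protein-coding gene were left out.

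**Figure D2:**
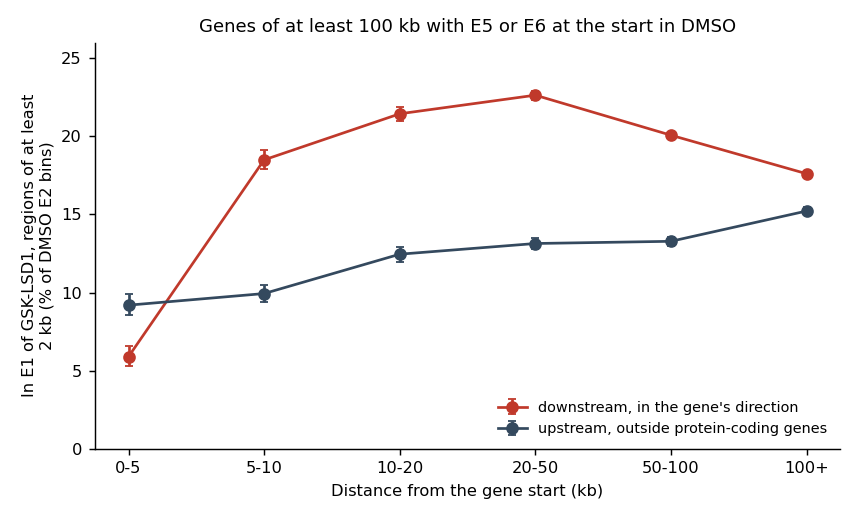
Share of DMSO E2 bins that lay in converted regions (vertical axis, %) by distance from the start (horizontal axis, kb classes) for 1120 protein-coding genes of at least 100 kb with E5 or E6 at the start in DMSO; points are shares over all those genes with 95% Wilson intervals, downstream in red and upstream in dark blue. The downstream share reaches 22.6% at 20 to 50 kb and exceeds the upstream share in every class except the first.

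The area was spread over many genes, with long genes at the top. Genes holding at least 2 kb had a median length of 49.0 kb, against 17.3 kb for all protein-coding genes, and a median of 6.8 kb converted. The 25 genes with most area held 6.98% of the converted area in gene bodies, and 575 genes held 50% of the area summed over genes.

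Fam155a, an auxiliary subunit of the NALCN sodium leak channel at chr8:9206006-9773329, held the most: 227.6 kb in 30 regions, of 452.8 kb that was E2 in DMSO. Babam2, a subunit of BRCA1-linked deubiquitinase complexes, followed with 192.0 kb of 324.8 kb. Thada, named for a gene rearranged in human thyroid adenomas, held 191.0 kb of 232.6 kb, and Maml3, a coactivator of Notch signalling, held 190.0 kb of 326.6 kb. Tiam1, an exchange factor for the GTPase Rac, held 189.6 kb of 272.6 kb, and Foxp1, a forkhead transcription factor, held 179.0 kb of 431.4 kb.

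These long genes differed in how complete the conversion was. Clec16a, which acts in autophagy and mitophagy, had 90.6% of its DMSO E2 converted, 126.6 of 139.8 kb. Etv6, an ETS-family repressor needed by blood stem cells, had 89.3% converted, 110.4 of 123.6 kb. Thada had 82.1% and Igf1r, the receptor for insulin-like growth factor 1, had 80% converted. At the other end, Pde4d, a cAMP phosphodiesterase, had 25.04% of its 641.4 kb converted, and Cdkal1, a tRNA-modifying enzyme, had 33.4% of its 490.2 kb. Aopep shared 18.2 kb and Vps13d 17.8 kb of their converted area with an overlapping gene.

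**Figure D3:**
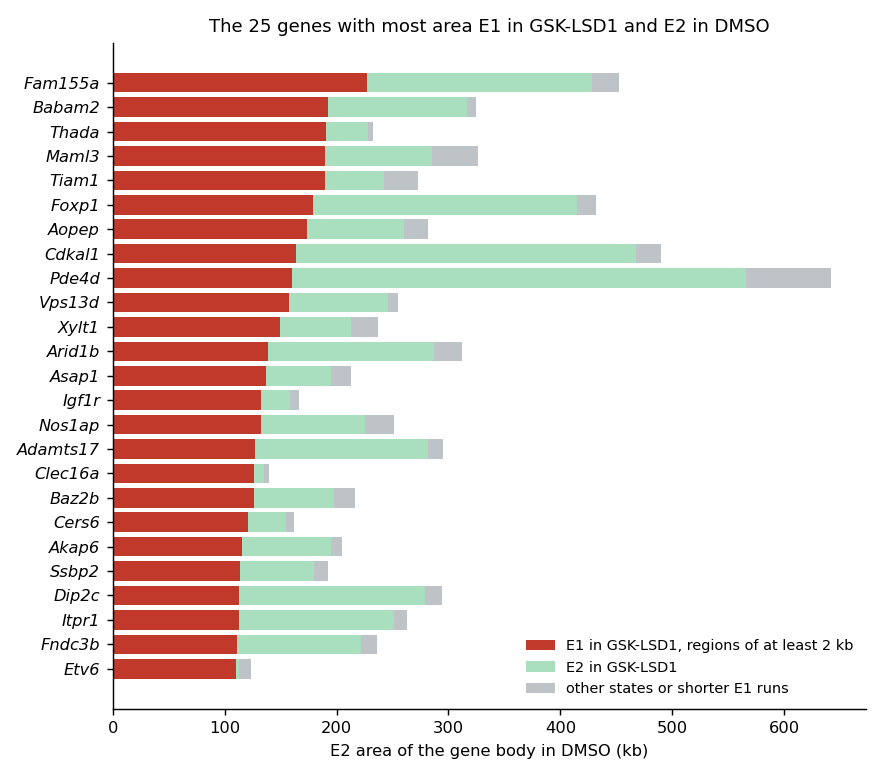
The 25 protein-coding genes with most converted area (rows, largest at the top); bar length is the area of the gene body that was E2 in DMSO (kb), split into converted regions (red), bins that were E2 in GSK-LSD1 (green) and other states or shorter E1 runs (grey). Converted area ranges from 227.6 kb in Fam155a to 110.4 kb in Etv6, and Clec16a and Etv6 have almost no green.

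The bars for the 25 genes show that a large converted area could mean nearly full conversion or a smaller share of a very long E2 domain. The other genes in the set were Xylt1 with 149.2 kb, Arid1b with 138.8 kb, Asap1 with 137.2 kb, Nos1ap with 132.6 kb, Adamts17 with 127.2 kb and Baz2b with 125.8 kb. Cers6, a ceramide synthase, held 121.0 kb, and Akap6, an anchor for protein kinase A, held 115.2 kb. Ssbp2 held 113.6 kb, Dip2c and Itpr1 held 112.6 kb each, and Fndc3b held 111.2 kb. Itpr1 encodes a receptor for inositol trisphosphate that releases calcium.

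Some shorter genes were converted over almost their whole body. Among genes of at least 20 kb, Cep97, a centriole protein, had the highest share, with 31.0 kb or 88.7% of its body and 100% of its E2. Slc36a3, of an amino acid transporter family, followed with 84.0%, Tmem8b with 82.7% and Uspl1, a SUMO protease, with 82.3% of the body. Blm, the helicase altered in human Bloom syndrome, had 60 kb in 5 regions, 74.9% of its body and 99.01% of its E2. Mrnip, Pwwp2a, Gm46963, Gm4606 and Primpol had between 73.6% and 70.6%.

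Tracks of states along single genes show long E1 stretches in GSK-LSD1 where DMSO had E2. In Ikzf2, the transcription factor Helios, 105.2 kb of 116.6 kb of E2 was converted in 6 regions. In Etv6, E1 covered 183.8 kb in GSK-LSD1 and 70.8 kb in DMSO, and E5 or E6 covered 48.0 kb in GSK-LSD1 and 22 kb in DMSO. In Thada, E1 covered 215.8 kb in GSK-LSD1 and 20.0 kb in DMSO. Csf3r, the receptor gene whose mutant form the cells carry, held no converted area: of 20.2 kb that was E2 in DMSO, 15.2 kb was kept, and its start was E5 in GSK-LSD1 and E4 in DMSO.

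**Figure D4:**
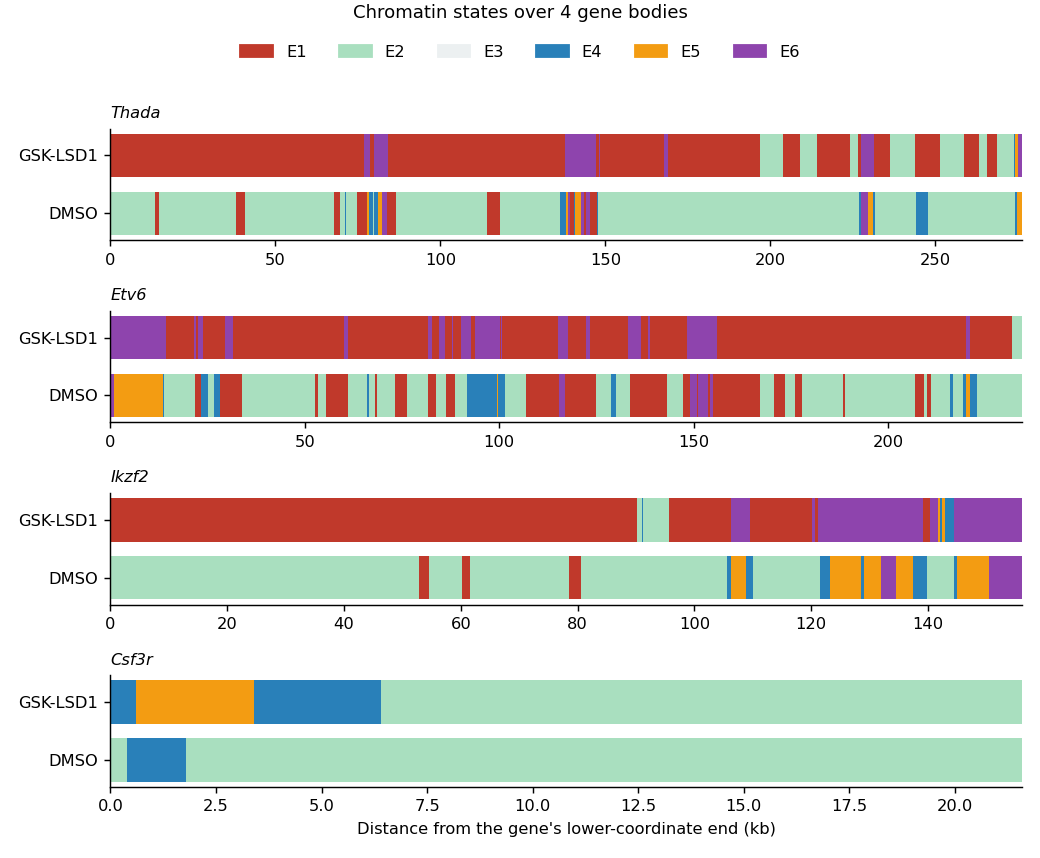
States along the bodies of Thada, Etv6, Ikzf2 and Csf3r (horizontal axis, kb from the end of the gene with the lower coordinate), with the GSK-LSD1 segmentation above the DMSO segmentation in each; colours mark states E1 to E6. Most of what is E2 (green) in DMSO is E1 (red) in GSK-LSD1 in Thada, Etv6 and Ikzf2, while Csf3r has no E1 in either.

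The longest single region, 65.6 kb at chr1:69518401-69584000, lay over Ikzf2 and beyond its lower-coordinate end. It bordered E4 on 1 side and E1 on the other in DMSO, and E1 on both sides in GSK-LSD1. The next, 59.2 kb at chr16:93048601-93107800, lay outside protein-coding genes, 222.5 kb from Runx1, the nearest protein-coding gene, and bordered E6 on both sides in GSK-LSD1 and E2 on both sides in DMSO. Regions over Susd1 (44.4 kb), Ssbp2 (43.8 kb), Zeb2 (38.2 kb), Tiam1 (35.0 kb) and Xylt1 (34.8 kb) were among the 8 longest. A region of 35.0 kb lay 71.0 kb from Haao.

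Outside gene bodies, the 5 longest regions were those near Runx1 and Haao, 1 of 34.6 kb near Prkch, 1 of 33.2 kb near Cyb5a and 1 of 29.2 kb near Hif1a. All 5 adjoined E6 on at least 1 side in GSK-LSD1. None could do so in DMSO, where the regions were E2 by selection and E2 never bordered E6. The regions near Prkch, at chr12:73782801-73817400, and near Hif1a, at chr12:73851401-73880600, lay close to each other. The nearest gene is named for position alone.

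The densest window of 1 Mb was chr13:37000001-38000000, with 466.6 kb converted in 64 regions, of 705.6 kb that was E2 in DMSO. Only 97.8 kb of that lay in protein-coding genes, with 53.6 kb in Rreb1, a zinc finger transcription factor, 23.2 kb in F13a1, the A subunit of coagulation factor XIII, and 10.2 kb in Ly86, a partner of the receptor RP105. The next window, chr4:59000001-60000000, held 313.2 kb, of which 204.0 kb was in genes. A window of chromosome 1, starting at 170000001, held 292.6 kb, with 132.6 kb in Nos1ap and 76.8 kb in Atf6.

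Gene lists of blood cell biology were examined by their counts and by the share of their summed E2 that was converted. Of all protein-coding genes, 18.9% held at least 2 kb, the median was 0 kb per gene, and 15.6% of summed E2 was converted. Both shares were higher for myeloid transcription factors, progenitor genes, LSD1 partners, JAK/STAT signalling, lipid kinase signalling and chromatin regulators. They were also higher for mast cells with basophils and eosinophils. The azurophil granule and lymphocyte lists stood higher by share of E2, while their counts, 22.2% each, were near that of all genes. The granulocyte, monocyte, erythroid, nervous system and housekeeping lists stood lower in both, and the stromal list was higher only in the share of E2. The counts of the granulocyte (15%), nervous system and stromal lists (16.7% each) were near that of all genes. With 20 kb added on either side of each gene, 7424 of 21631 genes held at least 2 kb, against 9 of 20 granulocyte, 8 of 15 erythroid and 9 of 15 housekeeping genes, so the order of these 3 lists by count turned. No set test was made. Longer genes have more room for a converted region, so the median gene length is given for lists of long genes and for some others.

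Among myeloid transcription factors, 11 of 24 held at least 2 kb, and 49.2% of their summed E2 was converted; the median member held 0 kb and measured 14.0 kb. Etv6 led with 110.4 kb. Zeb2, a zinc finger repressor of myeloid development, held 85.2 of 104.0 kb, and Runx2 held 81.8 of 224.6 kb. Runx1, a core factor of blood stem cells, held 35.0 of 78.2 kb. Ikzf1 had 84.7% of its E2 converted, 27.6 of 32.6 kb, and Spi1, which encodes PU.1, held 10.4 of 19.8 kb. Cebpa had no E2 in its body and held none.

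Of 20 progenitor and leukaemia genes, 10 held at least 2 kb, and 24.7% of their summed E2 was converted (median 1.6 kb). Msi2, an RNA-binding protein of stem cells, held 84.4 of 298.6 kb. Erg, an ETS factor, held 56.8 of 173.4 kb, and Mecom, whose product EVI1 is active in some leukaemias, held 48.6 of 194.6 kb. Cdk6, a cell cycle kinase, held 41.8 of 85.2 kb, and Myb held 7.0 of 10 kb. Kit and Flt3, receptors of progenitor cells, held 0 kb although 46.2 and 48.2 kb of their bodies were E2 in DMSO.

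Genes of LSD1, CoREST and GFI1 had 6 of 14 members with at least 2 kb and 21.8% of summed E2 converted (median 0.2 kb). Gse1, a protein found with CoREST, held 68.8 of 173.4 kb. It made up most of the 117.8 kb converted in this list, whose E2 summed to 540 kb, so the list share rests largely on it. Kdm1a, the gene of the inhibited enzyme, held 14.8 of 34.2 kb in 3 regions, and E1 covered 22.8 kb of it in GSK-LSD1 and 1.2 kb in DMSO. Rcor1, the CoREST scaffold, held 13.0 of 59.8 kb. Gfi1 held 0.2 kb and Gfi1b 0 kb, and both had an E6 start in GSK-LSD1 and an E5 start in DMSO.

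Of 20 JAK/STAT genes, 9 held at least 2 kb, and 36.0% of summed E2 was converted (median 0 kb). Among the 15 members with at least 2 kb of E2, the median share converted was 10%. Jak1 and Stat3 held much of the 141 kb converted in the list. The list is not confined to genes that act below CSF3R, since it includes Csf3r itself, other cytokine receptors and the ligand gene Osm. Jak1 held 56.6 of 64.8 kb, or 87.3%. Stat3, the main STAT activated by CSF3R, held 24.8 of 24.8 kb, and Stat5a 13.0 of 14.0 kb. Stat5b held 17.8 of 35.2 kb and Jak2 13.0 of 53.0 kb. Jak3, Tyk2 and Stat2 held 0 kb, with 10.6, 17.4 and 18.6 kb of E2 in DMSO.

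Lists of long regulatory genes had the highest counts among those given. Of 20 chromatin regulators (median length 97.3 kb), 15 held at least 2 kb, with a median of 15.1 kb and 27.5% of summed E2 converted. Arid1b, a subunit of the BAF remodelling complex, held 138.8 of 311.8 kb, Chd7, a remodelling helicase, 77.4 of 127.8 kb, and Hdac4, a histone deacetylase, 46.4 of 238.8 kb. Ezh2, the H3K27 methyltransferase, held 34.8 of 50.8 kb.

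Of 20 genes of lipid kinase and second messenger signalling (median length 192 kb), 14 held at least 2 kb, with a median of 9.8 kb and 20.9% of summed E2 converted. Besides Pde4d, the leading members were Prkca, a protein kinase C, with 102.2 of 295.4 kb, and Pde4b, another cAMP phosphodiesterase, with 28.6 of 89.4 kb. Of 18 long genes of the nervous system (median length 1481 kb, median E2 of 3.1 kb in DMSO), 3 held at least 2 kb, 5.30% of summed E2 was converted, and the leading members Csmd1, Macrod2 and Nrxn3 held 11.8, 7.0 and 2.8 kb.

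Products of mature myeloid cells had a small share of their E2 converted. Of 20 granulocyte genes, 3 (15%) held at least 2 kb, near the 18.9% of all genes. Their median length was 7.36 kb, against 17.3 kb for all genes, which leaves less room for 2 kb. Of the summed E2 of the list, 6.92% was converted, against 15.6% for all genes (median 0 kb in both). The 3 genes were Itgb2 with 5.2 kb and Itgam with 3.4 kb, the subunits of the integrin Mac-1, and Cxcr2, a chemokine receptor, with 3.6 of 5.4 kb. Ltf and Padi4 held 0 kb of 23.6 and 23.2 kb of E2. Of 18 monocyte and macrophage genes, Ly86 alone held at least 2 kb, and 3.80% of summed E2 was converted; Csf1r kept 23.8 of 23.8 kb as E2.

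Azurophil granule genes are short, so counts say little of them. Of 9, 2 held at least 2 kb, but 56.8% of their 37.0 kb of E2 was converted. Srgn, the granule proteoglycan serglycin, held 14.6 of 17.6 kb, Ms4a3 held 4.6 of 7.4 kb, and Elane held 1.8 of 1.8 kb. Mpo, the granule peroxidase, held 0 kb of the 8.6 kb that was E2 in DMSO, and 3.6 kb of it was kept.

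Lists of other cell types, which the marrow could hold, gave mixed counts. Of 18 B and T lymphocyte genes 4 held at least 2 kb, with 30.8% of summed E2 converted; Foxp1, which myeloid cells also express, made up 179.0 kb of the 243.8 kb, with Bach2 at 49.2 kb and Tcf7 at 12 kb. Of 15 erythroid and megakaryocyte genes only Vwf did, with 6.8 kb, and 4.49% of summed E2 was converted. Of 11 genes of mast cells, basophils and eosinophils, 5 did, with 28.8%: Ccr3, the eotaxin receptor, held 12.4 of 13.8 kb, Il5ra 3.2 kb, and Cpa3, Hdc and Siglecf between 2.4 and 2.2 kb.

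Of 12 stromal and endothelial genes, 2 held at least 2 kb, with 48.1% of 84.8 kb: Pecam1, an adhesion molecule also found on leucocytes, held 31.2 of 32.6 kb, and Pdgfrb 9.6 of 14.8 kb. Of 15 housekeeping genes only Ywhaz did, with 5.0 kb, and 6.56% of summed E2 was converted. Actb and B2m, next in that list, held 0 kb. Chromatin was taken from whole cultures, so a change in the make-up of the cells and a change within cells cannot be told apart, and the part of other cell types in these values was not tested.

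**Figure D5:**
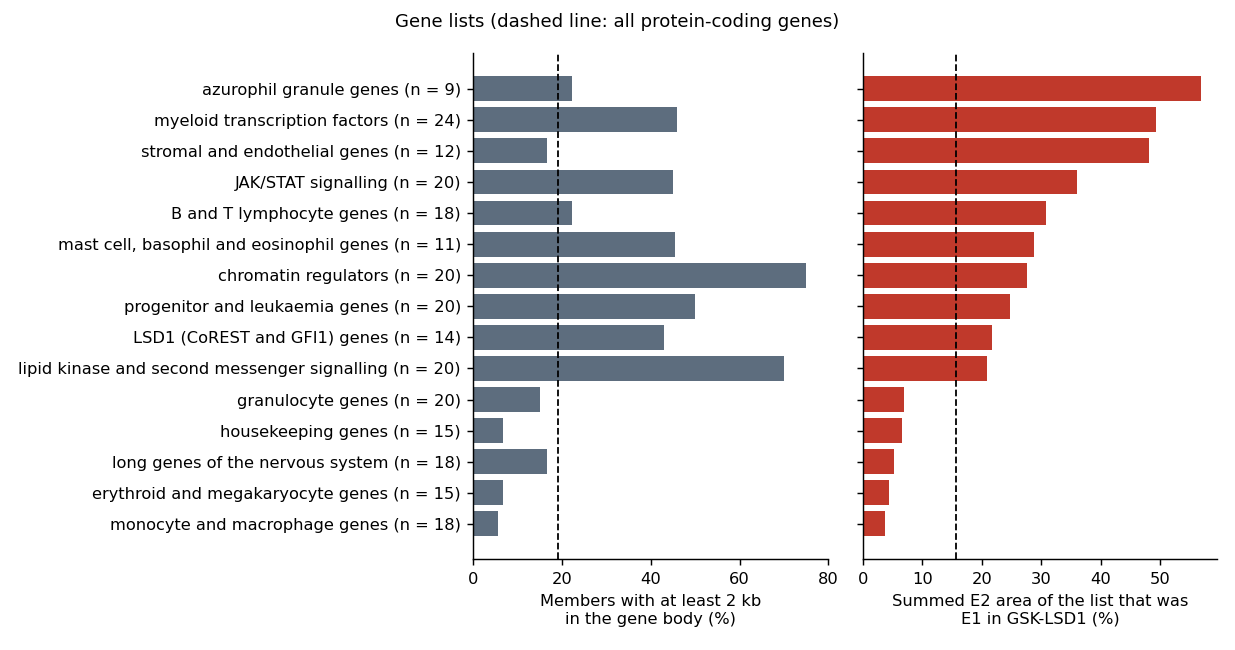
For 15 gene lists (rows), the share of members with at least 2 kb converted in the body (left, %) and the share of the summed DMSO E2 area that was converted (right, %); dashed lines give all protein-coding genes, 18.9% and 15.6%. Azurophil granule genes and myeloid transcription factors have the highest shares of E2 converted, 56.8% and 49.2%, and monocyte and macrophage genes the lowest, 3.80%.

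The plot of the lists shows that the count of genes and the share of E2 order the lists differently. Chromatin regulators led by count, with 75% of members, and stood lower by share of E2. Azurophil granule genes and stromal genes stood high by share of E2, on small summed areas of 37.0 and 84.8 kb, and Srgn and Pecam1 made up 14.6 and 31.2 kb of what was converted.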

How the data were processed

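H3K4me1, H3K4me3 and H3K27Ac chromatin immunoprecipitation libraries (1 per mark and treatment) and 1 input library were made by the authors. The deposited values used here are state labels, E1 to E6, in 1 segmentation per treatment, and the input was not analysed. Reads were mapped with Bowtie to mm10 (GRCm38), per the submitters' processing notes. The sources used here do not give the segmentation tool, the threshold for calling a mark, the marks of a state or whether 1 model served both treatments. Labels come from thresholds, so differences in depth or in the quality of a precipitation can move them.

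Segments were expanded to 200 bp bins on chromosomes 1 to 19 and X; Y, M and unplaced sequences were left out. Distances run from the edge of a region to the nearest E5 or E6 bin. Genes, promoter windows and microRNAs came from RefSeq tables on GRCm38.p6, with 21631 protein-coding genes and all 274 entries of 16 lists matched by symbol; 1 of the lists is not reported here. A gene was counted if its body held at least 2 kb of converted bins. The genes named are the 25 with most area, the 10 with the highest share of the body among genes of at least 20 kb, the 3 leading members of each list, Cebpa, Csf3r, Kdm1a, Gfi1 and Gfi1b, and the nearest genes of the longest regions; further list members, promoters and microRNAs were picked with their values in view. Regions, lists and rules were chosen with earlier results of these data known. The calculations were checked on simulated data with planted regions. With 1 segmentation per treatment no p-value was computed, and bins, genes and chromosomes are not replicates. Alternatives covered the minimum length, short segments, boundary bins, the destination state, gene types, distance limits, flanks and each chromosome left out. Python 3.11.15, numpy 2.4.6, pandas 2.3.3, statsmodels 0.14.6 and matplotlib 3.10.9 were used.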

Additional observations from a re-analysis of the deposited data

How the results depend on the processing

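No paired analysis was possible because each treatment has 1 segmentation. With a minimum of 5 kb in place of 2 kb, the converted area was 49.7 Mb, 2135 genes held at least 2 kb, and the gene-body share was 64.9%, or 2.14 percentage points above kept E2. The kept bins in the gene-body differences had no length minimum in any setting. The median distance to E5 or E6 was then 5.2 kb for converted and 6.4 kb for kept regions. With a minimum of 1 kb the gene-body share was 63.6%, the difference 0.806 points and the distance 7.4 kb. The share was 64.0% without boundary bins, and 63.0% with E1 or E6 of GSK-LSD1 as destination, where the difference was 0.208 points. It was 72.1% with genes of any type (difference 2.27) and 63.4% within 20 kb of E5 or E6 (difference 2.60). Leaving out each chromosome in turn gave shares between 63.0% and 64.3% and differences between 0.426 and 1.497. The distance was 7.8 kb for converted and 6.6 kb for kept regions with E5 alone, and 1.2 and 3.6 kb with the E5 and E6 of GSK-LSD1. By distance in GSK-LSD1, conversion at 2 to 5 kb was 11.5 times that beyond 100 kb, against 4.38 times in DMSO distances. The GSK-LSD1 distances use the segmentation that also defines conversion, where E2 never bordered E5 or E6. Selection therefore partly fixes them, and the 2 ratios are not like measures. Gene counts were 1518 at 10 kb of area and 7424 with 20 kb flanks. The difference in gene-body share was positive in each alternative run, and the order of the distance medians turned at the 5 kb minimum and with the E5 and E6 of GSK-LSD1. The difference in gene-body share, the ratio by distance and the list counts were added after seeing the data. A minimum of 5 kb lowered 61 of 90 named genes, and flanks raised 47, beyond the 95% Wilson interval of the reported value. It lowered 7 of 16 list counts, and flanks raised 9, by over 1.5 times. Stat5b, Rcor1, Itgb2, Itgam, Ly86, Il5ra, Cpa3, Ywhaz, Macrod2, Nrxn3 and Hif1a held 0 kb at the 5 kb minimum. In all of these the cause was not tested, beyond the fewer regions that a longer minimum leaves.

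State labels hold no read counts, so depth limits cannot be stated, and a change of label can reflect a mark crossing a threshold in 1 library.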
